A study of Mesocricetus auratus with 24 samples.

Results

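Heat shock chaperones were examined in the inferior colliculus (IC), the midbrain auditory nucleus in which audiogenic seizures begin. The 10 genes chosen were Hsph1, Hspa4, Hspa4l, Hspa5, Hspa8, Hsp90aa1, Hsp90ab1, Dnajb1, Hspb1 and Hspd1. A probe set listed with that gene symbol alone was found for 9 of them, among 19938 genes tested. Hsp90ab1 had no such probe set and was not analysed here. The 24 hamsters (Mesocricetus auratus), aged 16 weeks, fell into 4 groups of 6. Naïve Syrian and stimulated Syrian animals were control Syrian hamsters without and with auditory stimulation, and naïve GASH/Sal and stimulated GASH/Sal animals were the same for the genetic audiogenic seizure hamster from Salamanca, a strain selected for seizures evoked by loud sound. Stimulated animals gave tissue 60 min after the sound. For its own experiments, the study reported seizures in stimulated GASH/Sal hamsters and none in stimulated Syrian controls. Sound and any seizure it evoked cannot be told apart in the stimulated GASH/Sal arrays. Animal names in the labels have 2 styles, called label series A (replicates 1 to 3 of every group) and label series B (replicates 4 to 6) here, and no source used here gives the meaning of the styles. Because mouse probes on whole-transcript arrays read hamster RNA, the signal level of a gene was compared across arrays and not with that of another gene. For the same reason, the labelled tissue could not be checked by the levels of its marker genes. Responses of different genes are given side by side, and how evenly the probes read them was not tested.

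Molecular chaperones bind unfolded proteins and keep them from clumping until they fold. HSP70 proteins such as Hspa8 and Hspa5 do this in cycles of ATP hydrolysis. J proteins such as Dnajb1 start the cycle, and HSP110 proteins such as Hsph1 release the nucleotide that ends it. Heat shock factors switch on many of these genes when damaged protein accumulates, the endoplasmic reticulum has a separate unfolded protein response that raises Hspa5, and strong neuronal activity, seizures included, is known to raise several of them in brain.

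The deposited values were log2 signals. Array medians lay between 4.50 and 4.65, and the correlation of 2 arrays over all genes was between 0.965 and 0.993. A pair of arrays, both of label series B, stood apart from the other arrays of their group and series. They were naïve GASH/Sal 6, with a mean correlation of 0.972 and a median deviation of 0.174, and stimulated Syrian 4, with 0.969 and 0.202, where the deviation of every other array lay between 0.0932 and 0.128. Fos, an immediate-early gene that neurons switch on with activity, served as the check that sound was given. Its response to sound, stimulated minus naïve averaged over both strains, was 0.58 on the log2 scale (SE 0.0839, limma adjusted p = 0.00222). The Fos response was 0.62 within label series A and 0.54 within label series B.

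Over all 24 arrays, the chaperones were slightly higher after sound, and none of them passed the test. All 9 had an average response above 0, as had 58.3% of all genes, and their median was 0.15 beside 0.01 for all genes. A gene counts as called here when its p-value from limma, adjusted by the Benjamini-Hochberg method over all genes, was under 0.05. Of the 9 chaperones, 0 were called, and over all genes 0.00502% were called, which is Fos alone. At an unadjusted p under 0.05, 5 chaperones were higher, beside 5.22% of all genes. The response was 0.34 for Dnajb1 (SE 0.101, adjusted p = 0.411), 0.25 for Hsph1 (SE 0.0613, adjusted p = 0.214), 0.20 for Hspa5 (SE 0.0750, adjusted p = 0.541), 0.15 for Hspb1 and 0.12 for Hspa4. Hsph1 was called when stimulated GASH/Sal 6 was left out (limma adjusted p = 0.0482). Hsp90aa1 had 0.17, Hspd1 0.06, Hspa4l 0.05 and Hspa8 0.05. Over both series, 0 chaperones and 0% of all genes had every stimulated array above every naïve array. In bulk tissue, more cells of a type and more RNA per cell cannot be told apart, which holds for every difference given here.

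**Figure D1:**
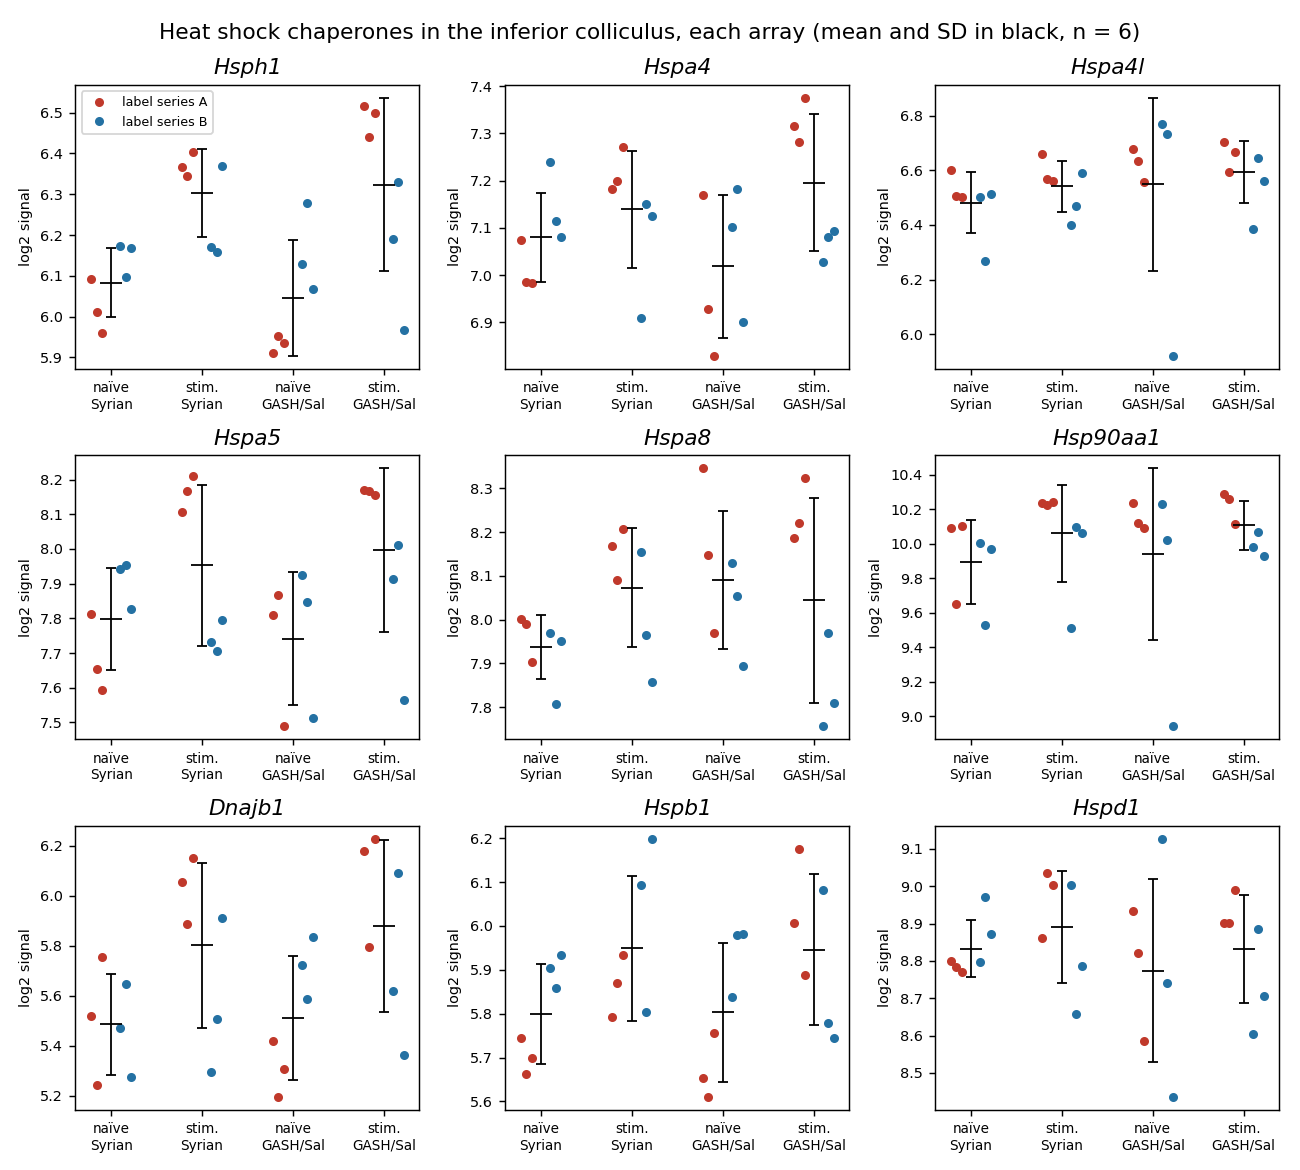
Log2 signal (vertical axis, a separate scale for each gene) of the 9 heat shock chaperones in each of the 24 arrays, by group on the horizontal axis, with red points for label series A, blue points for label series B, and the mean with its SD in black (n = 6 each). For Hsph1, Hspa5, Dnajb1, Hspb1 and Hspa4 the 6 red stimulated points lie above the 6 red naïve points, and the 6 blue stimulated points overlap the 6 blue naïve points.

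Each label series was also fitted alone, and the test of the difference between the series, given further on, called 0 chaperones (lowest limma adjusted p = 0.0968). In label series A fitted alone, 5 of 9 chaperones were called higher, beside 1.7% of all genes called higher and 0.532% called lower (444 genes in all). They were Hsph1, Hspa5, Dnajb1, Hspa4 and Hspb1. With any 1 of the 12 arrays left out, 3 to 4 chaperones were called among 100 to 484 genes, the fewest genes without naïve GASH/Sal 3, and in a fit of all 24 arrays as 8 combinations of group and series (the 8-cell fit) 3 chaperones were called among 62 genes. The median of the 9 was 0.26 beside 0.01 for all genes. In series B fitted alone, 0 chaperones and 0 genes were called, 5 of 9 chaperones were above 0 beside 57.8% of all genes, and their median was 0.03 beside 0.02. At an unadjusted p under 0.05, series B gave 0 chaperones and 3.67% of all genes higher. The same 5 chaperones that were called in series A had each of its 6 stimulated arrays above each of its 6 naïve arrays, a pattern that 1.74% of all genes had. The calls rest on the same 12 arrays, and the chaperones were chosen with earlier results of these data known. The pattern is therefore a description and not separate evidence. In series B, 0 of 9 chaperones and 0.15% of all genes had it. Fos had it in series B but not in series A, where its Syrian arrays overlapped.

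**Figure D2:**
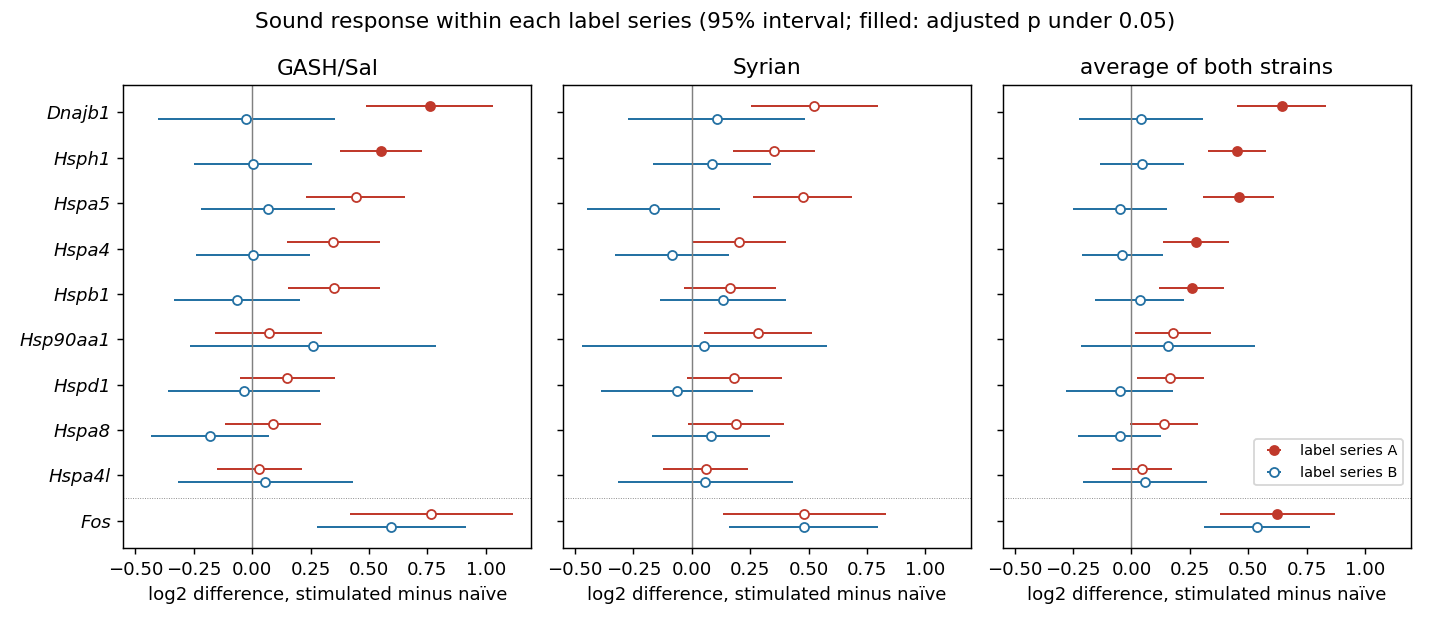
Response to sound (stimulated minus naïve, log2 difference with its 95% interval) of the 9 chaperones and Fos within label series A (red) and label series B (blue), in GASH/Sal hamsters, in Syrian hamsters and averaged over both strains; filled points passed the adjusted threshold. In the right panel Dnajb1, Hsph1 and Hspa5 lie between 0.45 and 0.64 in series A and between -0.05 and 0.05 in series B, whereas Fos lies at 0.62 and 0.54.

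Hsph1 encodes an HSP110 protein that resets HSP70 by exchanging its nucleotide. Over both series it lay at 6.08 ± 0.0852 (SD, n = 6) in naïve Syrian, 6.30 ± 0.108 in stimulated Syrian, 6.05 ± 0.142 in naïve GASH/Sal and 6.32 ± 0.212 in stimulated GASH/Sal hamsters. The stimulated means were the higher ones, and the pooled SD within groups was 0.145. In label series A the naïve Syrian arrays read 6.09, 6.01 and 5.96 and the stimulated Syrian arrays 6.37, 6.35 and 6.40. The naïve GASH/Sal arrays read 5.91, 5.95 and 5.94 and the stimulated GASH/Sal arrays 6.52, 6.44 and 6.50. The groups were separated by 0.25 at their closest. The average response in series A was 0.45 (SE 0.0596, adjusted p = 0.00198), a 1.37-fold higher signal, and ranked 3 by p-value among all genes. In series B the naïve arrays ran from 6.07 to 6.28 and the stimulated arrays from 5.97 to 6.37. There the groups overlapped and the average response was 0.05, with a 95% interval from -0.134 to 0.225. The naïve arrays of series B lay above those of series A in GASH/Sal hamsters (mean 6.16 against 5.93), and the stimulated arrays below (6.16 against 6.49).

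Hspa4 and Hspa4l are the other HSP110 genes. Hspa4 read 7.07, 6.98 and 6.98 in naïve and 7.18, 7.20 and 7.27 in stimulated Syrian hamsters of series A, and 7.17, 6.93 and 6.83 in naïve and 7.31, 7.28 and 7.37 in stimulated GASH/Sal hamsters. The closest stimulated and naïve arrays were 0.01 apart. Its average response in series A was 0.28 (SE 0.0677, adjusted p = 0.0403), and the call ended without any of 10 of the 12 arrays, with adjusted p up to 0.111; it was kept without naïve Syrian 1 or naïve GASH/Sal 1. The response was -0.04 in series B. Hspa4l, a protein prominent in testis, differed least of the chaperones in series A, with a response of 0.05 (adjusted p = 0.749), and had 0.06 in series B. Its lowest array was naïve GASH/Sal 6 at 5.92, with the other 5 of that group between 6.56 and 6.77.

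Hspa5, or BiP, is the HSP70 of the endoplasmic reticulum and a standard marker of its unfolded protein response. Over both series it lay at 7.80 ± 0.147 (SD, n = 6) in naïve Syrian, 7.95 ± 0.233 in stimulated Syrian, 7.74 ± 0.191 in naïve GASH/Sal and 8.00 ± 0.236 in stimulated GASH/Sal hamsters. In series A the naïve arrays read 7.81, 7.66 and 7.59 in Syrian and 7.81, 7.87 and 7.49 in GASH/Sal hamsters. The stimulated arrays read 8.11, 8.17 and 8.21 in Syrian and 8.17, 8.17 and 8.16 in GASH/Sal hamsters. The 6 stimulated arrays thus ran from 8.11 to 8.21, and the lowest was 0.24 above the highest naïve array. The average response in series A was 0.46 (SE 0.0724, adjusted p = 0.00446), or 1.37-fold. In series B the estimates had opposite signs in Syrian and GASH/Sal hamsters, and neither was called. The naïve Syrian arrays read 7.94, 7.95 and 7.83 and the stimulated Syrian arrays 7.73, 7.71 and 7.80. The Syrian response there was -0.16 (95% interval -0.450 to 0.123). The naïve GASH/Sal arrays of series B ran from 7.51 to 7.93 and the stimulated ones from 7.56 to 8.01, with a response of 0.07. The difference between the strains in series B was 0.23 (SE 0.192) and was not called.

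Hspa8, the constitutive cytosolic HSP70, moved little. Its response in series A was 0.19 in Syrian and 0.09 in GASH/Sal hamsters, and in series B 0.08 and -0.18, none of them called. The lowest, median and highest arrays over both series were 7.81, 7.96 and 8.00 in naïve Syrian, 7.86, 8.12 and 8.21 in stimulated Syrian, 7.89, 8.09 and 8.35 in naïve GASH/Sal and 7.76, 8.08 and 8.32 in stimulated GASH/Sal hamsters. All 4 groups overlapped. Over all arrays the GASH/Sal response of Hspa8 was the only one of the 9 below 0, at -0.045 (SE 0.0794), where 55.8% of all genes were above 0.

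Dnajb1 encodes a J protein that hands unfolded substrates to cytosolic HSP70 and is a classical target of heat shock factor. Its levels were 5.49 ± 0.201 (SD, n = 6) in naïve Syrian, 5.80 ± 0.332 in stimulated Syrian, 5.51 ± 0.248 in naïve GASH/Sal and 5.88 ± 0.345 in stimulated GASH/Sal hamsters. In series A it read 5.52, 5.24 and 5.76 in naïve and 6.06, 5.89 and 6.15 in stimulated Syrian hamsters. The GASH/Sal arrays of series A read 5.42, 5.20 and 5.31 without sound and 6.18, 5.79 and 6.23 after it. These gave the highest average response of the 9 chaperones in series A, 0.64 (SE 0.0920, adjusted p = 0.00438), a 1.56-fold higher signal. The lowest stimulated array was 0.04 above the highest naïve array. In series B the arrays ran from 5.28 to 5.84 without sound and from 5.30 to 6.09 after it, and the response was 0.04 (95% interval -0.226 to 0.308).

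Hsp90aa1 encodes the stress-inducible cytosolic HSP90, which finishes the folding of kinases and receptors. Its response was 0.18 in series A (adjusted p = 0.235) and 0.16 in series B. In series A the stimulated Syrian arrays read 10.23, 10.22 and 10.24 and the naïve ones 10.09, 9.65 and 10.10, while the GASH/Sal arrays overlapped, at 10.12 to 10.29 after sound and 10.09 to 10.23 without it. In series B 3 arrays were low, at 9.53 in naïve Syrian 5, 9.51 in stimulated Syrian 4 and 8.94 in naïve GASH/Sal 6, and the others lay between 9.93 and 10.23. The GASH/Sal response over all arrays was 0.17 with naïve GASH/Sal 6 and -0.015 without it, and the average response in series B was -0.040 without it.

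Hspb1, a small heat shock protein that holds unfolded proteins without ATP, read 5.74, 5.66 and 5.70 in naïve and 5.79, 5.87 and 5.93 in stimulated Syrian hamsters of series A. The GASH/Sal arrays of series A read 5.65, 5.61 and 5.76 and, after sound, 6.01, 6.18 and 5.89. The average response was 0.26 (SE 0.0666, adjusted p = 0.0474). This call ended without any 1 of the 12 arrays, with adjusted p from 0.0558 to 0.119. In series B the response was 0.03, and the naïve arrays there, at 5.84 to 5.98, lay above the 6 naïve arrays of series A. Hspd1, the mitochondrial chaperonin, had responses of 0.17 in series A (adjusted p = 0.204) and -0.05 in series B, and its groups overlapped except for stimulated over naïve Syrian arrays of series A.

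The difference between the series in the response to sound was tested in the 8-cell fit. No chaperone was called, beside 0.00502% of all genes, which is Pip5k1b alone. The average response in series B minus that in series A was -0.51 for Hspa5 (95% interval -0.753 to -0.260, adjusted p = 0.0968), -0.41 for Hsph1 (-0.605 to -0.207, adjusted p = 0.0968), -0.60 for Dnajb1 (adjusted p = 0.141) and -0.31 for Hspa4 (adjusted p = 0.202). These 4 had an unadjusted p under 0.05, as had 6.31% of all genes in that direction. For Hspb1, Hspd1 and Hspa8 the difference lay between -0.22 and -0.19, for Hsp90aa1 it was -0.02, and for Hspa4l it was 0.01. For Fos it was -0.09 (95% interval -0.443 to 0.270). With arrays weighted by their quality, Hsph1 and Hspa5 were called, at adjusted p = 0.0464 and 0.0355, among 107 genes. Without the pair of arrays that stood apart, Hspa5 was called at adjusted p = 0.0460, among 35 genes. In the 8-cell fit the series A response was called for Hsph1, Hspa5 and Dnajb1 (adjusted p = 0.00383, 0.0158 and 0.0158), beside 0.311% of all genes, but not for Hspa4 (0.0905) or Hspb1 (0.143). What the label styles stand for cannot be told apart from the series themselves.

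The strains were compared next, since GASH/Sal hamsters are prone to seizures on loud sound. Over all arrays the response in GASH/Sal hamsters was 0.37 for Dnajb1 (SE 0.143), 0.28 for Hsph1 (SE 0.0867), 0.25 for Hspa5 (SE 0.106) and 0.18 for Hspa4 (SE 0.0807), and in Syrian hamsters 0.32, 0.22, 0.16 and 0.06. No gene at all was called in either strain, so percent called was 0 in both. At an unadjusted p under 0.05, 4 chaperones were higher in GASH/Sal hamsters and 2 in Syrian hamsters, beside 2.88% and 4.35% of all genes. The difference between these responses ran from -0.18 for Hspa8 to 0.12 for Hspa4, and 0 chaperones and 0 genes were called. At an unadjusted p under 0.05, 0 chaperones differed, beside 1.75% of genes in the positive and 1.93% in the negative direction. For Hsph1 the difference was 0.06 with a 95% interval from -0.191 to 0.310, and for Dnajb1 0.05 with an interval from -0.361 to 0.465.

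Within label series A, Hsph1 and Dnajb1 were 2 of the 7 genes (0.0351%) called in GASH/Sal hamsters, at 0.55 (SE 0.0843, adjusted p = 0.0238) and 0.76 (SE 0.130, adjusted p = 0.0454). In the 8-cell fit neither was called for this response (limma adjusted p = 0.0996 and 0.259), nor was any other gene (0%). In Syrian hamsters of series A 0 chaperones were called among 5 genes (0.0251%), with 0.47 for Hspa5 (adjusted p = 0.0637), 0.35 for Hsph1 (adjusted p = 0.0843) and 0.53 for Dnajb1 (adjusted p = 0.0857). The difference of responses in series A was 0.20 for Hsph1 (95% interval -0.0474 to 0.451), 0.24 for Dnajb1 (-0.149 to 0.619) and -0.03 for Hspa5 (-0.334 to 0.271), none of them called. In series A each stimulated array was above each naïve array for 5 chaperones in GASH/Sal hamsters and 8 in Syrian hamsters, beside 9.6% and 11.3% of all genes. The 8 in Syrian hamsters were all but Hspa4l, and the 5 in GASH/Sal hamsters were Hsph1, Hspa4, Hspa5, Dnajb1 and Hspb1.

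No chaperone was called for a difference in level between the strains, which does not show that the levels were equal. GASH/Sal minus Syrian was between -0.06 (Hspa4) and 0.15 (Hspa8) in naïve animals and between -0.06 (Hspd1) and 0.08 (Dnajb1) after sound, with 0 chaperones and 0 genes called in both. Averaged over sound, 0 chaperones were called beside 0.01% of all genes, which are Arl15 and Rasgrf2. The order of the 4 group means was the same for Hsph1, Hspa4 and Hspa5, from stimulated GASH/Sal over stimulated Syrian and naïve Syrian to naïve GASH/Sal. For Hsph1 the means spanned 0.28 against a pooled SD within groups of 0.15, and neighbours in that order differed by at most 0.22, the step from stimulated to naïve Syrian. For Hspa4, Hspa5 and Dnajb1 the span was 0.18, 0.25 and 0.39 against pooled SDs of 0.13, 0.21 and 0.29. For Hspa4l, Hspa8, Hsp90aa1, Hspb1 and Hspd1 the whole span was smaller than the pooled SD.

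Further chaperone genes were counted in the same fits. Of 94 further genes in 8 classes, 92 were tested, all but Hsf1 and Hspa1b. In series A alone 74 of them had an average response above 0, beside 52.4% of all genes, with a median of 0.09, and 8 were called higher and 0 lower, beside 1.7% and 0.532% of all genes. In the 8-cell fit 0 were called for that response (lowest limma adjusted p = 0.0559). In series B alone 35 were above 0, beside 57.8% of all genes, with a median of -0.04, and 0 were called. The difference between the series, B minus A, had a median of -0.13, and 0 of the 92 were called (lowest limma adjusted p = 0.0519). Over all arrays 61 were above 0, with a median of 0.02, and 0 were called.

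**Figure D3:**
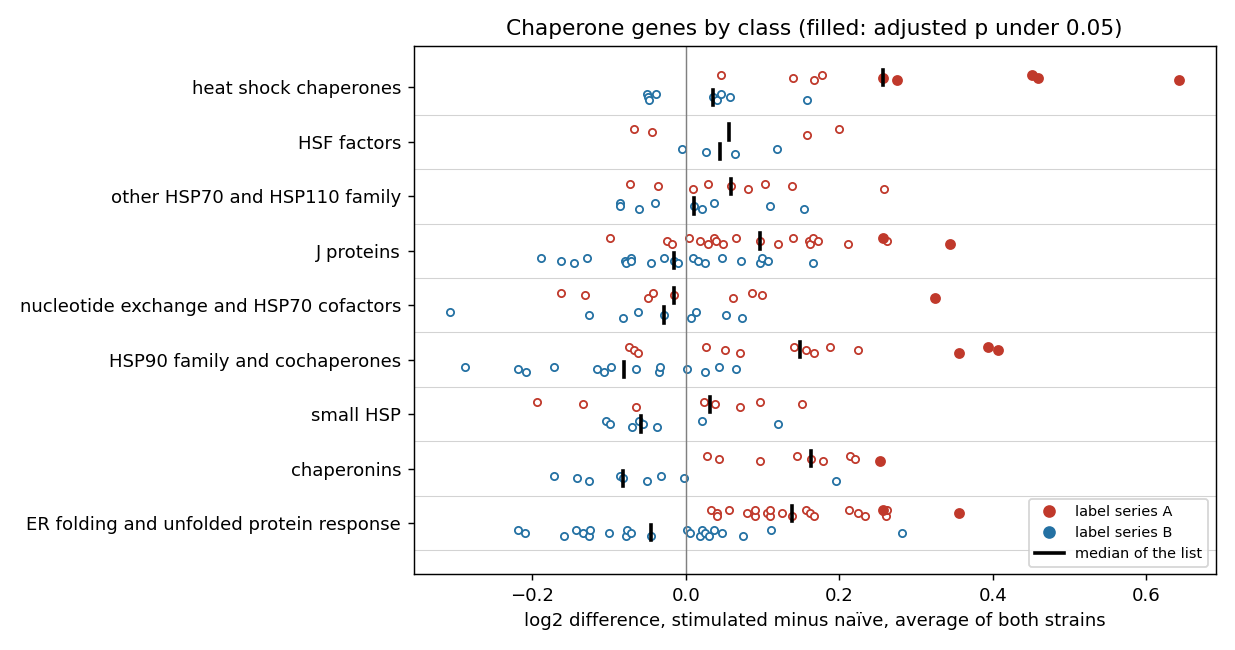
Average response to sound of the heat shock chaperones and of 8 classes of other chaperone genes (stimulated minus naïve, log2 difference on the horizontal axis), a point per gene, in label series A (red) and label series B (blue), with a black bar for the median of each class and filled points for genes past the adjusted threshold. All 23 genes of the endoplasmic reticulum class and all 9 chaperonins lie above 0 in series A, and 11 and 1 of them do in series B. Of all genes tested, 52.4% lie above 0 in series A and 57.8% in series B.

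The 8 genes called in series A alone, each of which lost its call in the 8-cell fit, were the following. Cdc37 (0.41, adjusted p = 0.0313), Stip1 (0.39, adjusted p = 0.0240) and Chordc1 (0.36, adjusted p = 0.0195) encode cochaperones of HSP90, and Stip1 links it to HSP70. Dnajb5 (0.34, adjusted p = 0.0249) and Dnajb11 (0.26, adjusted p = 0.0446) are J proteins, the latter of the endoplasmic reticulum, where Pdia6 (0.36, adjusted p = 0.0362) forms disulphide bonds. Stub1 (0.32, adjusted p = 0.0309) is a ubiquitin ligase that acts on chaperone clients, and Cct3 (0.25, adjusted p = 0.0364) a subunit of the cytosolic chaperonin. In series B the same genes had -0.29, -0.17, 0.06, 0.11, -0.05, -0.10, -0.31 and -0.17, in the order named. The negative values of Cdc37 and Stub1 had unadjusted p of 0.0134 and 0.00419 in series B and an adjusted p of 0.897 each.

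The counts by class stand beside 52.4% of all genes above 0 in series A alone and 57.8% in series B alone. Calls are those of series A alone, where 1.7% of all genes were called higher. In the 8-cell fit 0 genes of the classes were called. By class, the HSP90 family and cochaperones had 11 of 14 genes above 0 in series A (median 0.15, 3 called) and 4 in series B (median -0.08). Genes of endoplasmic reticulum folding and its unfolded protein response had 23 of 23 above 0 in series A (median 0.14, 2 called) and 11 in series B (median -0.05). The chaperonins had 9 of 9 (median 0.16, 1 called) and 1 (median -0.08), and the J proteins 18 of 21 (median 0.10, 2 called) and 9 (median -0.02). Dnajb9, Dnajb11, Dnajc3, Hsp90b1 and Hyou1 count in 2 of the classes each, so the counts of the classes share these 5 genes. The other HSP70 and HSP110 genes had 7 of 9 above 0 in series A (median 0.06) and 5 in series B (median 0.01), and the small heat shock proteins 5 of 8 (median 0.03) and 2 (median -0.06). Of the nucleotide exchange factors and HSP70 cofactors 4 of 9 were above 0 in series A (median -0.02, 1 called) and 4 in series B (median -0.03). Of the heat shock factors Hsf2, Hsf4 and Hsf5 and the factor-binding protein Hsbp1, 2 of 4 were above 0, Hsf2 and Hsbp1, in series A (median 0.06) and 3 in series B (median 0.04).

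Over all arrays no gene of these classes was called, and the ends of each class were as follows for the average response. Among heat shock factors and Hsbp1, Hsf2 had 0.16 and Hsf4 -0.02, and among other HSP70 and HSP110 genes Hspa2 had 0.11 and Hspa14 -0.04. Dnajb5 had 0.23 and Dnajc5, of synaptic vesicles, -0.05 among J proteins. St13 had 0.05 and Bag4 -0.10 among cofactors, and Chordc1 0.21 and Aarsd1 -0.14 among HSP90 partners. Hspb3 had 0.07 and Hspb2 -0.12 among small heat shock proteins, and Cct8 0.21 and Hspe1, the partner of Hspd1, -0.06 among chaperonins. Atf4, a transcription factor of the unfolded protein response, had 0.19 and the disulphide isomerase P4hb -0.05. In GASH/Sal hamsters the ends were Hsf4 at 0.07 and Hsf2 at 0.00026, Hspa1a at 0.14 and Hspa12a at -0.07, Dnajc13 at 0.35 and Dnajc7 at -0.10, and Bag3 at 0.11 and Stub1 at -0.16. They were Chordc1 at 0.21 and Aarsd1 at -0.11, Cryaa at 0.17 and Hspb2 at -0.19, Cct8 at 0.23 and Hspe1 at -0.09, and Dnajb11 at 0.24 and Ern1 at -0.09. Hspa1a, an HSP70 gene that is strongly heat-inducible in other tissues, had average responses of -0.04 in series A and 0.15 in series B.

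The label series also differed in level, averaged over the groups. With the groups in the model, 6.89% of all genes were called between the series (1374 genes), 5.87% higher and 1.02% lower in series B. Of the chaperones 1 was called, Hspa8, lower in series B by a log2 difference of -0.19 (SE 0.0562, adjusted p = 0.0393), and that call ended in 15 of 24 fits with 1 array left out (adjusted p from 0.0192 to 0.0807). Hsp90aa1 differed by -0.28 (SE 0.101, adjusted p = 0.101), of which the low arrays of series B were part: without naïve GASH/Sal 6 it was -0.18. The others lay between -0.12 (Hspa4l, Hspa5 and Dnajb1) and 0.12 (Hspb1), and 8 of 9 were below 0, whereas 62.2% of all genes were above 0. These values are averages over the groups, and the direction was not always shared. For Hsph1, Hspa4 and Hspa5 the mean of series B was above that of series A in both naïve groups and below it in both stimulated groups. Hspa5 had 7.69 in series A and 7.91 in series B in naïve Syrian hamsters. In stimulated Syrian hamsters Hspa5 had 8.16 and 7.74. Other chaperone genes called between the series were Dnajc5 (0.27), Hspa12a (0.22), Dnajc27 (0.19) and Sel1l (0.16), higher in series B, and Sdf2l1 (-0.21), lower.

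Some cell type markers differed between the series too. Of 59 marker genes 55 were tested. In series B 10 were called higher and 1 lower, beside 5.87% and 1.02% of all genes. Above 0 were 40 of the 55 (median 0.07), beside 62.2% of all genes. Higher were the neuronal genes Tubb3 (0.35), Rbfox3 (0.34) and Syt1 (0.23), the inhibitory marker Slc32a1 (0.28), the oligodendrocyte genes Cnp (0.28) and Mag (0.27), Flt1 of endothelium (0.31), Aldh1l1 of astrocytes (0.23), En1 of the midbrain (0.26) and Tbr1 of the forebrain (0.22). Lower was Alas2 of red blood cells (-0.18). The lists were not uniform: 5 of 6 neuronal genes were above 0, and the other had -0.24 and was not called. Above 0 were 2 of 3 inhibitory, 3 of 5 oligodendrocyte, 5 of 6 astrocyte and 5 of 5 endothelial markers. So were 6 of 7 dorsal midbrain, 2 of 3 forebrain and 1 of 2 blood markers. The part of these differences in the chaperone results was not tested.

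With sound in series A, 33 of the 55 markers were above 0, with a median of 0.03, and 3 were called higher, beside 1.7% of all genes, Tfap2d (0.32, adjusted p = 0.0409), Stmn2 (0.29, adjusted p = 0.0356) and Mobp (0.26, adjusted p = 0.0440). In the 8-cell fit 0 markers were called (lowest limma adjusted p = 0.0847). The number above 0 and the median were 4 of 6 and 0.02 for neurons, 1 of 3 and -0.05 for inhibitory neurons, 5 of 6 and 0.14 for astrocytes, 5 of 5 and 0.05 for oligodendrocytes, 1 of 6 and -0.03 for microglia and 1 of 5 and -0.03 for endothelium. They were 1 of 2 and 0.01 for blood, 3 of 5 and 0.02 for choroid plexus, 5 of 7 and 0.10 for the dorsal midbrain, 4 of 6 and 0.14 for cerebellum and 2 of 3 and 0.10 for the forebrain. Slc17a6, the only marker of excitatory midbrain neurons listed, had 0.13. The mean of the 6 astrocyte markers in series A ran from 6.12 to 6.18 in naïve Syrian, 6.26 to 6.37 in stimulated Syrian, 6.27 to 6.35 in naïve GASH/Sal and 6.32 to 6.37 in stimulated GASH/Sal hamsters. The mean of the 6 cerebellar markers ran from 4.58 to 4.75, 4.72 to 4.91, 4.58 to 4.65 and 4.61 to 4.84 in the same order. Averaged over strains, the medians of the marker lists in series A lay below that of the chaperones, 0.26. In Syrian hamsters of series A alone, the dorsal midbrain median was 0.24 and the chaperone median 0.20. In GASH/Sal hamsters of series A alone, they were 0.12 and 0.35. The part of cell content in the chaperone responses was not tested. Over all arrays and averaged over strains, the markers ran from -0.22 (Tubb3) to 0.25 (Tfap2b), and in GASH/Sal hamsters from -0.29 (Tubb3) to 0.26 (Aif1), with 0 called.

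Correlations among the chaperones were taken within each series. Over the 36 pairs of the 9 genes the median correlation of log2 signal was 0.61 across the 12 arrays of series A, with 26 pairs above 0.5, and 0.22 across the 12 arrays of series B, with 9 pairs above 0.5. After group means were removed the medians were 0.26 and 0.38, so that the series no longer stood in that order. These are descriptions over arrays that share a normalisation. Without the pair of arrays that stood apart, the medians of series B were 0.19 and 0.27.

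The genes whose signal followed Hsph1 most closely over the 24 arrays, with the series means removed, were Yy1 (r = 0.87, rho = 0.87), Arf1 (0.85, 0.88), Banp (0.85, 0.89), Sgk1 (0.84, 0.82) and Klf9 (0.84, 0.86). Within series A their r with Hsph1 was between 0.91 and 0.96, and within series B between 0.48 and 0.71. Yy1 and Ctcf encode zinc finger transcription factors, and Sgk1 and Klf9 are known targets of glucocorticoid. Those most like Hspa5 were Yy1 (r = 0.83, rho = 0.79), Ctcf (0.82, 0.80), Ddx20 (0.81, 0.78), Elovl2 (0.81, 0.78) and Chordc1 (0.81, 0.81), with r from 0.85 to 0.88 within series A and from 0.72 to 0.77 within series B. These genes were picked as the closest of all and carry no test. Group means were not removed, so differences between groups that the genes share count toward these correlations.

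Several chaperones had more than 1 probe set, and the brightest was used. The 3 probe sets of Hsp90aa1 gave series A responses of 0.18, 0.18 and 0.15 and series B responses of 0.16, 0.17 and 0.18, and the others correlated with the brightest at 0.98 and 0.98 over 24 arrays. Both probe sets of Hspb1 correlated at 0.95 and gave 0.26 and 0.27 in series A. For Hspa8 the 3 probe sets gave 0.14, 0.07 and 0.05 in series A and -0.05, -0.08 and -0.11 in series B (r = 0.69 and 0.58 with the brightest). The other probe set of Hspd1 was dim, with a mean of 3.92, and gave 0.04 against 0.17 in series A (r = 0.45). Hsph1, Hspa4, Hspa4l, Hspa5 and Dnajb1 had 1 probe set each, so their responses could not be set beside those of another probe set.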

How the data were processed

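The authors hybridised IC RNA (integrity number above 8.0 per the labels) to Affymetrix mouse whole-transcript arrays and deposited log2 signals. The submitters' processing notes name RMA, with no version, a method that subtracts background, equalises arrays and combines probes, so changes common to most genes are removed. Of 35556 probe sets, 21789 carried 1 gene symbol in the platform annotation, 1621 several and 12146 none listed. Probe sets with 1 symbol were used, and the brightest by mean was kept for the 999 genes with more than 1, which left 19938 genes. Dim genes were kept, and 0 columns were unused. Arrays give no read depth, so their number limits the precision.

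Differences were fitted with limma (version 3.58.1, R version 4.3.3) by lmFit and eBayes at their defaults, with 4 groups and the label series in the model (19 residual degrees of freedom), for 8 contrasts. The label series difference of the response came from 8 cells of group and series (16 degrees of freedom), and responses within a series from its 12 arrays alone (8 degrees of freedom). All tests were two-sided, with Benjamini-Hochberg adjustment over all genes and a threshold of 0.05. Intervals are 95% intervals. The study states no test for these arrays. Labels name each array a separate biological replicate. The script was tested on simulated data.

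The members and the lists were chosen with earlier results of these data known. The named genes were the members, the genes of the other lists past the adjusted threshold, the ends of each chaperone list, Fos, and 5 genes most like Hsph1 and Hspa5. The rule also named the ends of each marker list, of which the ends over all marker lists are given. The lists were the 8 chaperone classes (heat shock factors with Hsbp1, other HSP70 and HSP110 genes, J proteins, nucleotide exchange factors, HSP90 and cochaperones, small heat shock proteins, chaperonins, endoplasmic reticulum folding) and 12 marker lists. Pip5k1b, Arl15, Rasgrf2 and Hspa1a are named after their values were seen. Alternatives for the model were a replicate block, no label series, array weights, robust eBayes with a trend, fits of a single series or of only the groups compared, and leaving out each array. Alternatives for the values were every probe set, averaged probe sets per gene, quantile normalisation, centred medians, and keeping genes over the median signal (percentile 50). Leaving out both arrays that stood apart, and all alternatives to the fits within a series, were added after seeing the data. Promoter and protein sequences were not analysed here.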

Additional observations from a re-analysis of the deposited data

Results flagged for a closer look

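Over 36 combinations of chaperone and group, 4 held an array far from the other 5 of its group by Dixon's test, where chance gives about 1 in 20. Hspa4l was low in naïve GASH/Sal 6, at 5.92 beside 6.56 to 6.77, and in naïve Syrian 5, at 6.27 beside 6.50 to 6.60. Hsp90aa1 was low in naïve GASH/Sal 6, at 8.94 beside 10.02 to 10.23, and in stimulated Syrian 4, at 9.51 beside 10.06 to 10.24. All 4 values are of label series B, and 3 of the 4 values come from the pair of arrays that stood apart across all genes.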

How the results depend on the processing

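The counts of called chaperones were 0 over all arrays in the responses to sound and in the strain differences. Of 1087 values recomputed with other settings (arrays left out one at a time not counted) 997 were classed as unchanged. For a gene this meant the same direction and side of the threshold. A count was unchanged if equal, 0 included, or within a set fold. A median was unchanged if it moved by less than 0.10, the SD between arrays of the chaperones' mean. That is a wide margin beside the median average response of 0.15. The cause of the changes below was not tested, and some of the settings used fewer arrays or genes. Depth does not apply to arrays, and 3 arrays per group within a series limit what the series comparison can show.

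Label series A alone called 2 chaperones and 7 genes for the GASH/Sal response (median of the chaperones 0.348, Hspa8 turned to 0.0896), 5 genes for the Syrian response, 5 chaperones and 444 genes for the average response (median 0.257), and 0 genes for the strain difference averaged over sound, where 2 were called over all arrays. Label series B alone left 5 chaperones above 0 in the GASH/Sal response (median 0.00436), where Dnajb1 turned to -0.0247, Hspb1 to -0.0640 and Hspd1 to -0.0363. In the Syrian response of series B, Hspa4 turned to -0.0839, Hspa5 to -0.164 and Hspd1 to -0.0639. In its average response 5 chaperones were above 0 (median 0.0347), 0 genes were called, and Hspa4 turned to -0.0391, Hspa5 to -0.0483, Hspa8 to -0.0491 and Hspd1 to -0.0501. In its strain difference averaged over sound 3 chaperones were above 0 and 0 genes were called.

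Without the label series in the model, 0 genes were called for the averaged strain difference, as with every probe set. A filter at the median signal called 1 gene for the GASH/Sal response and 2 for the naïve strain difference. Median centring called 2 genes for the naïve strain difference and put 8 chaperones above 0 in the averaged strain difference. With robust eBayes and a trend, 1 gene was called for the GASH/Sal response. Averaged probe sets turned Hspd1 to -0.00849 in the GASH/Sal response and to 0.000819 in the level difference between the series, where 2 chaperones were above 0 and 0 called.

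With array weights 1 gene was called for the GASH/Sal response (Hspa4l turned to -0.0286), 18 for the naïve strain difference, 14 with 1 chaperone for the average response and 19 for the averaged strain difference. In the difference between the series in response, array weights put 0 chaperones above 0 in GASH/Sal, 1 in Syrian and 0 on average, where 2 chaperones and 107 genes were called and Hspa4l turned to -0.0703. Without the 2 arrays that stood apart, 5 chaperones were above 0 in the GASH/Sal response, where Hspa4l turned to -0.0767, Hsp90aa1 to -0.0206 and Hspd1 to -0.00552. The naïve strain difference then had 64 genes, the average response 2, and the averaged strain difference 36 with 3 chaperones above 0. The series difference in response then had 0 chaperones above 0 in GASH/Sal, 1 in Syrian with 1 gene called, and 0 on average, with 1 chaperone and 35 genes called and Hspa4l at -0.105.

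For the average response in series A alone, the fit of 8 cells called 3 chaperones and 62 genes, the filter at the median signal 709 genes, and quantile normalisation 3 chaperones and 242 genes, with Hspa4l at -0.00241. In series B alone, Hspa4l turned to -0.0242 with array weights and to -0.0596 without the 2 arrays that stood apart.

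The replicate block in place of the label series called 0 genes for the averaged strain difference. Same-numbered arrays did not deviate together (mean correlations from -0.068 to 0.014 per number), and 5 of 24 arrays correlated best with their own number. No pairing by number was seen in these values, which cannot exclude one. In series A alone the replicate block gave Hspb1 an adjusted p of 0.0637 and Hspa4 of 0.0472.

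With each array left out in turn, genes called ranged from 0 to 1 (GASH/Sal response, and the series difference of the response in each strain), 1 to 12 (average response), 100 to 484 (series A alone), 1 to 32 (series difference of the average response), 0 to 13 (naïve strain difference) and 0 to 36 (averaged strain difference). Chaperones called ranged from 0 to 1 for the average response (Hsph1 without stimulated GASH/Sal 6, adjusted p = 0.0482), 3 to 4 in series A alone, 0 to 1 for its series difference (Hspa5 without naïve GASH/Sal 6, 0.0467, and Hsph1 without stimulated GASH/Sal 5, 0.0494) and 0 to 2 between the series. Chaperones above 0 ranged from 5 to 8 (GASH/Sal response), 3 to 7 (difference of responses), 3 to 6 (series B alone), 2 to 6 (naïve strain difference), 4 to 8 (averaged strain difference), 1 to 2 (between series) and 0 to 2 (series difference of each response). The median in series B alone ran from -0.0792 to 0.0569.

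Signs turned with 1 array left out for Hsp90aa1 in the GASH/Sal response (-0.0154 to 0.256), in series B alone (-0.0399 to 0.282) and in the series difference of the response (-0.217 to 0.105). They turned for Hspa4l in the GASH/Sal (-0.0755 to 0.103) and average response (-0.00813 to 0.0813), in series B alone (-0.0811 to 0.131) and in the series difference of the response (-0.127 to 0.0856). They turned in series B alone for Dnajb1 (-0.0592 to 0.123), Hspa5 (-0.111 to 0.0181), Hspb1 (-0.0187 to 0.0917) and Hspd1 (-0.133 to 0.0396), for Hspd1 in the GASH/Sal response (-0.00696 to 0.139), and for Hsph1 between the series (-0.0534 to 0.00856).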
